A study of Homo sapiens with 16 samples.

Results

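The genes described here are 10 negative feedback regulators and transcriptional targets of the ERK pathway: DUSP4, DUSP5, DUSP6, SPRY1, SPRY2, SPRY4, SPRED1, SPRED2, ETV4 and ETV5. Every array row that carries 1 of these symbols was taken, which gave 12 of 20589 rows for 10 of 18190 symbols. DUSP4 and SPRY1 have 2 rows each, which were kept apart. Of the 12 rows, 11 passed the filter for testing, a detection p (the chance that a negative control bead is as bright) under 0.05 on at least 3 of 16 arrays.

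RNA came from MCF10A cells, a non-transformed line of human breast epithelium, and was hybridised to Illumina human Ref8v2 arrays. The cells grew in medium with EGF, insulin and hydrocortisone and were treated with CP724,714, a HER2 kinase inhibitor, at 1 µM. RNA was taken from parallel cultures every 3 hours from 0 to 45 hours, 1 array for each of 16 time points, so no time point has a replicate. The 0 hour array is of untreated cells, the other 15 are of treated cells, and the medium was also changed when treatment began. No untreated series over the same hours was analysed here, so treatment, the change of medium and hours in culture cannot be told apart. In RNA from whole cultures, fewer cells of a kind and less RNA per cell cannot be told apart either.

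Receptors such as EGFR and HER2 activate RAS, and RAS activates the kinases RAF, MEK and ERK in turn. Active ERK induces genes whose products shut the same pathway down: DUSP phosphatases remove the activating phosphates from ERK, and Sprouty (SPRY) and SPRED proteins act further upstream, at RAS and RAF. ETV4 and ETV5 are transcription factors of the ETS family whose transcripts commonly follow ERK activity.

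Median intensity of an array was between 210.4 and 253.9, and 50.1% to 52.9% of rows were detected. Of 10 markers of basal mammary epithelium, 9 could be tested, and KRT5 (median log2 intensity 15.05), KRT17 (13.75) and CDH3 (11.51) were bright on all 16 arrays. The curve test described below called 6 of the 9, beside 54.6% of all probes. In the last 4 arrays against the first 4, ITGB4, TP63 (TP73L on the array) and KRT17 were called higher and KRT6A lower (all probes, 16.2% and 15.0%). KRT14 was detected on 1 of 16 arrays, the tested row of LAMB3 on 4 and TP63 on 10. CDH1 was detected on all 16 arrays but was dim (median 6.49). Of 6 markers of other cell types, COL1A1, COL3A1, ESR1 and PGR were detected on 0 arrays, and the brightest row of PTPRC on 5. PECAM1 had the brightest row of the 6 (median 7.11), was detected on 15 arrays and moved with time, as given beside ETV4 and ETV5.

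Time was tested in 2 ways with limma, and all adjusted p-values cover 11957 probes. A smooth curve over the 16 arrays asked whether a probe changed with time at all. A fit of 4 windows of 4 arrays (0 to 9, 12 to 21, 24 to 33 and 36 to 45 hours) asked when; the arrays of a window are not replicates, and their spread holds the change within it. The curve test called 7 of 11 probes of the ERK feedback genes, beside 54.6% of all probes. These were DUSP4 (1 of its 2 probes), SPRY1, SPRY2, SPRED1, SPRED2, ETV4 and ETV5. Change with time was therefore about as common among these genes as on the whole array, and the results below turn on its timing and direction.

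**Figure D1:**
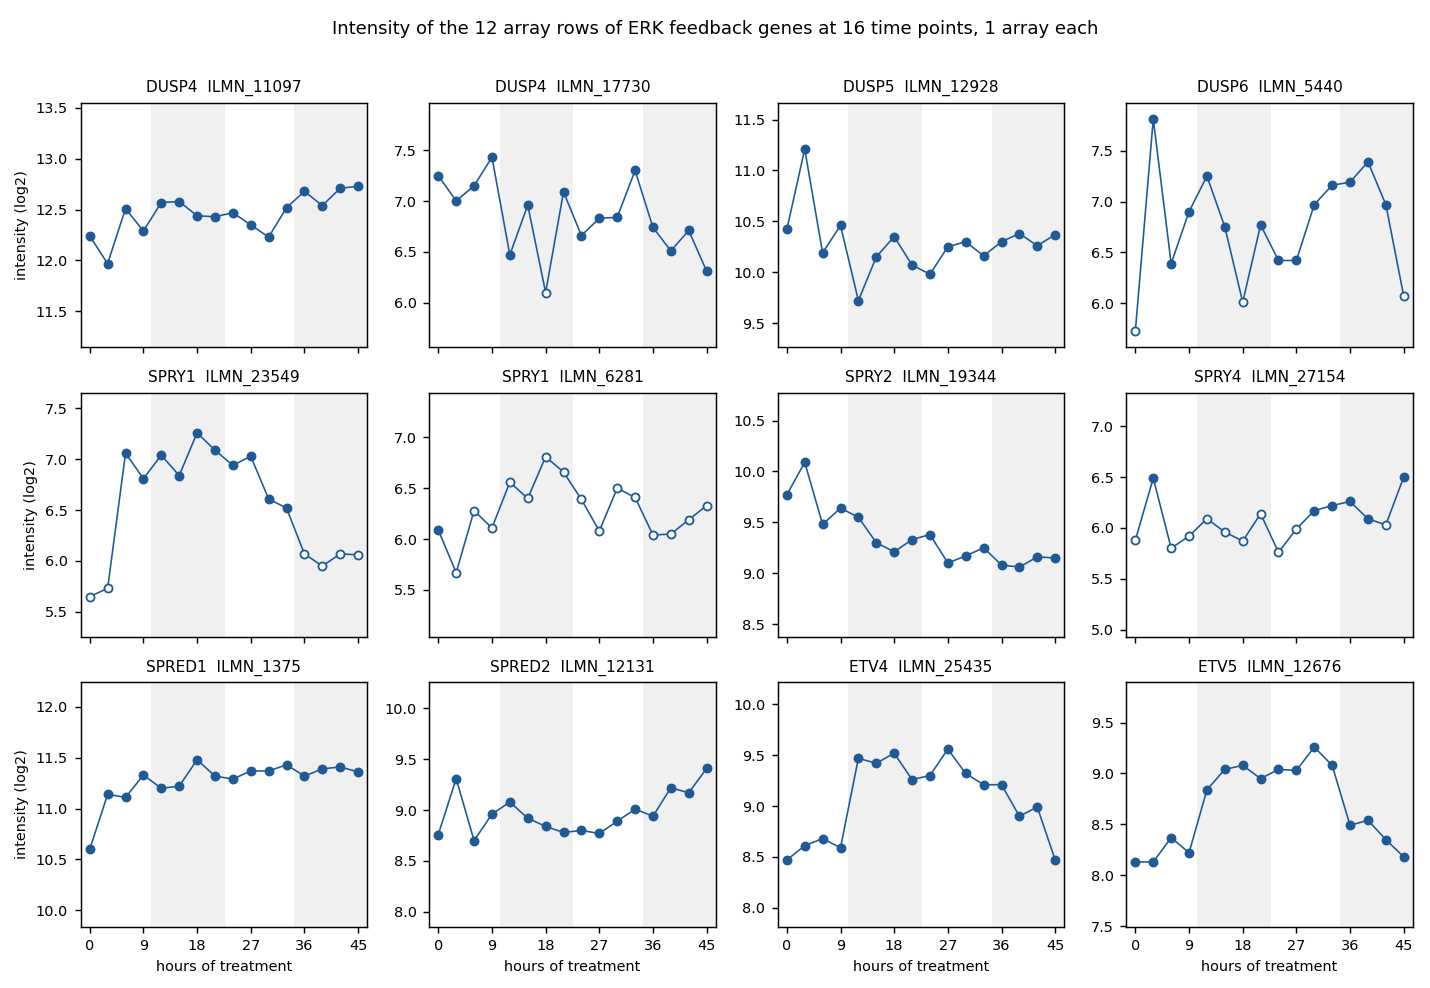
Log2 intensity (vertical axes, each spanning at least 2.2 log2 units) of the 12 rows against hours of treatment (horizontal axis), 1 array per point, with open points where the detection p was not under 0.05 and the 12 to 21 and 36 to 45 hour windows shaded. ETV4 and ETV5 stand higher from 12 to 33 hours, SPRY2 declines, and DUSP5, DUSP6 and SPRY2 have their highest array at 3 hours.

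The window of 12 to 21 hours against 0 to 9 hours called 7 of the 11 probes. The 4 that were higher were ETV4, ETV5, SPRY1 and 1 probe of DUSP4, beside 15.1% of all probes called higher. The 3 that were lower were SPRY2, DUSP5 and the other probe of DUSP4, beside 14.4% of all probes. The median difference of the 11 was -0.01 on the log2 scale, against 0.00 for all probes. Since probes were called in both directions, this median cannot show whether the genes moved as a group. With median scaling in place of quantile normalisation, 73.1% of the calls among all probes were on the higher side, against 51.2%, and of the 11 probes 5 were called higher and 0 lower. The count of 7 was 3 without the 3, 12 or 18 hour array and 4 without the 0 or 21 hour array.

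Between 12 to 21 and 24 to 33 hours limma called 0 of the 11 probes, beside 0.0251% of all probes, and 0 of the 11 had an unadjusted p under 0.05. From 24 to 33 to 36 to 45 hours the fit called 4 of the 11. Only DUSP4 (ILMN_11097) was higher, beside 19.3% of all probes, and SPRY1, ETV4 and ETV5 were lower, beside 18.7%. Median scaling changed the share of higher calls among all probes from 50.8% to 37.0% here, and the DUSP4 call was lost. The count of 4 was 2 without the 27 hour array.

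Against the first window, the last window had 4 of the 11 probes called. DUSP4 (ILMN_11097) and SPRED1 were higher, beside 16.2% of all probes, and SPRY2 and the other DUSP4 probe were lower, beside 15.0%. The median of the 11 was 0.20 and that of all probes -0.02. Median scaling changed the share of higher calls from 51.8% to 73.1% and the count among the 11 from 4 to 7, 5 of them higher.

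**Figure D2:**
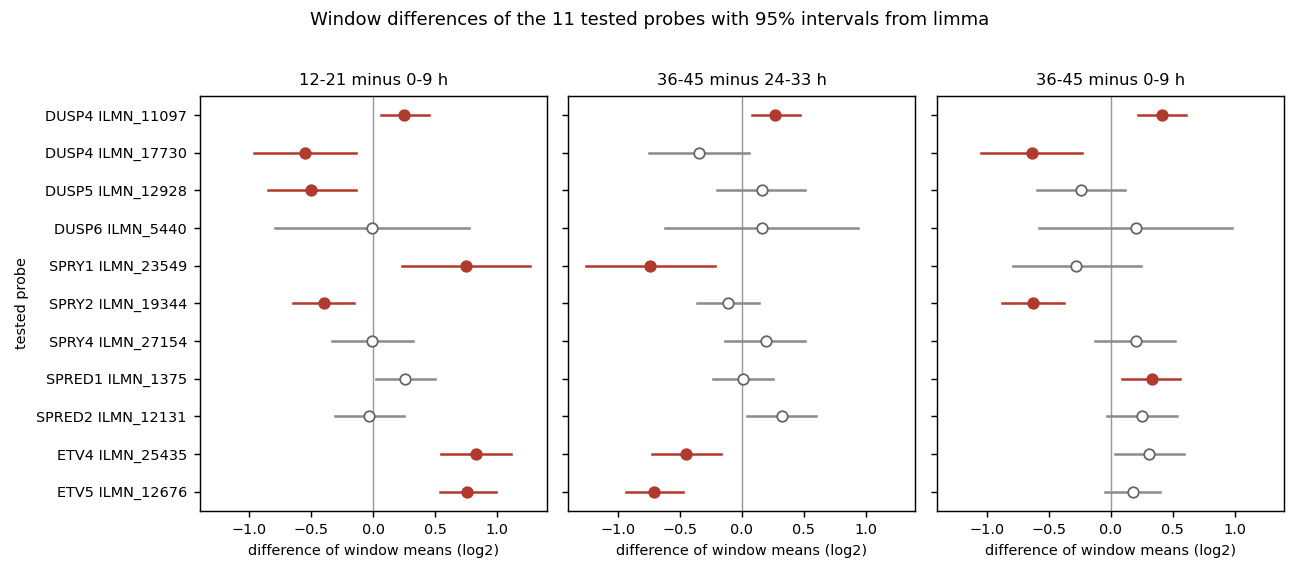
Differences between window means on the log2 scale (horizontal axes) for the 11 tested probes (rows), with 95% intervals from limma; filled red points have an adjusted p under 0.05. ETV4 and ETV5 are on the higher side at 12 to 21 hours (0.83 and 0.76) and on the lower side at 36 to 45 against 24 to 33 hours (-0.45 and -0.71).

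Among the transcription factors, ETV4 and ETV5 were raised for about a day and then came down. ETV4 (ILMN_25435) had log2 intensities of 8.47, 8.61, 8.68 and 8.59 at 0, 3, 6 and 9 hours. At 12, 15, 18 and 21 hours it had 9.47, 9.42, 9.52 and 9.26. The later 4 arrays were all above the earlier 4, and the whole step lay between the 9 and 12 hour arrays. The difference of the window means was 0.83 (SE 0.13, limma adjusted p = 0.00019), a 1.78-fold rise.

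From 24 to 33 hours ETV4 had 9.30, 9.56, 9.32 and 9.21, and from 36 to 45 hours 9.21, 8.90, 8.99 and 8.47. The last array was at the level of the 0 hour array, and the 36 hour array still overlapped the window before. The decline of 36 to 45 against 24 to 33 hours was -0.45 (SE 0.13, limma adjusted p = 0.012), a 1.37-fold fall. Between the first and last windows ETV4 differed by 0.31 (limma adjusted p = 0.085), which missed the threshold; it passed without the 45 hour array (0.45, limma adjusted p = 0.0082) and with median scaling (0.48, limma adjusted p = 0.018).

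ETV5 (ILMN_12676) had 8.13, 8.13, 8.37 and 8.22 from 0 to 9 hours, and 8.84, 9.04, 9.08 and 8.95 from 12 to 21 hours. It had 9.04, 9.03, 9.26 and 9.08 from 24 to 33 hours, and 8.49, 8.54, 8.35 and 8.18 from 36 to 45 hours. The 8 arrays from 12 to 33 hours were all above the other 8. ETV5 rose by 0.76 at 12 to 21 hours (SE 0.11, limma adjusted p = 7.1e-05, 1.7-fold). It fell by 0.71 at 36 to 45 against 24 to 33 hours (SE 0.11, limma adjusted p = 5.9e-05, 1.64-fold). The last window minus the first was 0.18 (limma adjusted p = 0.23); with median scaling it was 0.33 (limma adjusted p = 0.044). The rise and fall of both ETV genes were called under every alternative setting and with each array left out in turn. A straight line in place of the curve called neither (limma adjusted p = 0.62 for ETV4 and 0.65 for ETV5). The ETV5 row is a combined row, whose detection p-values do not follow the steps shared by single-probe rows.

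Over the 16 arrays ETV4 and ETV5 had a Pearson r of 0.90, the highest of the 55 pairs of tested probes, and 0.86 without the 0 and 3 hour arrays. Among 11956 other probes, ETV5 was number 29 by its r with ETV4. Neighbouring time points of 1 course are not independent, so these are descriptions. The endothelial marker PECAM1 was raised in the same window: it had 6.01 to 6.51 from 0 to 9 hours and 7.03 to 7.61 from 12 to 21 hours (difference 0.87, at least 1.8-fold because the 0 hour array was not above background, limma adjusted p = 3e-04). Its difference between 24 to 33 and 36 to 45 hours, the step at which both ETV genes fell, was -0.14 (limma adjusted p = 0.50). The summed intensity of the 6 markers of other cell types was 321 to 351 from 0 to 9, 373 to 436 from 12 to 21, 405 to 450 from 24 to 33 and 394 to 422 from 36 to 45 hours. The 5 markers other than PECAM1 summed to 230 to 271, 241 to 281, 243 to 277 and 257 to 273 in these windows, and 4 of them were detected on 0 arrays. Of the 9 tested basal markers, 1 was called higher and 1 lower at 12 to 21 against 0 to 9 hours (all probes, 15.1% and 14.4%). At 36 to 45 against 24 to 33 hours 5 were called higher (TP63, ITGB4, KRT17, CDH3 and EGFR) and KRT6A lower (all probes, 19.3% and 18.7%). The part of these markers in the ETV4 and ETV5 results was not tested.

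Among the Sprouty genes, SPRY1 was higher and SPRY2 lower at 12 to 21 than at 0 to 9 hours; from 24 to 33 to 36 to 45 hours both had negative differences, called for SPRY1 only. SPRY1 (ILMN_23549) was not above background at 0 and 3 hours (5.65 and 5.73) and was detected at 6 and 9 hours (7.06 and 6.81). It had 7.04, 6.84, 7.26 and 7.09 from 12 to 21 hours. From 24 to 33 hours it had 6.94, 7.03, 6.61 and 6.52. In the last 4 arrays it was again not above background (6.07, 5.95, 6.07 and 6.06). This probe was thus detected on the 10 arrays from 6 to 33 hours and on none of the other 6.

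The curve test called SPRY1 (limma adjusted p = 4.7e-05; 0.65 with a straight line). The 12 to 21 hour window was 0.75 above the first (SE 0.25, limma adjusted p = 0.029), and the first window overlapped it because its 6 and 9 hour arrays were already high. Only 2 of the first 4 arrays detected the probe, so the ratio is at least 1.43-fold (1.68-fold as measured). In a comparison chosen after the values were seen, 12 to 21 hours differed from 6 and 9 hours by 0.12 (limma adjusted p = 0.63). The call was also lost with only the 8 arrays compared in the fit (limma adjusted p = 0.12) and without the 0, 3, 12, 18 or 21 hour array (0.53 to 0.75, limma adjusted p between 0.056 and 0.11). The last window was not called against the first (limma adjusted p = 0.42), and no ratio is given because 6 of these 8 arrays were not above background. It was at least 1.8-fold below 6 and 9 hours (limma adjusted p = 0.00021), again chosen after the values were seen. The last window was at least 1.61-fold below 24 to 33 hours (difference -0.74, SE 0.25, limma adjusted p = 0.025), and this call was lost without the 24, 27 or 39 hour array (-0.68, -0.65 and -0.71; limma adjusted p = 0.066, 0.076 and 0.058). The other SPRY1 row (ILMN_6281), also a combined row, had a detection p under 0.05 on 1 array, that of untreated cells at 0 hours (6.09), where the first probe was not above background, and was not tested; it ranged from 5.67 at 3 hours to 6.81 at 18 hours and had an r of 0.70 with the first.

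SPRY2 (ILMN_19344) was detected on all 16 arrays and declined. It had 9.77, 10.09, 9.48 and 9.64 from 0 to 9 hours, and 9.55, 9.30, 9.21 and 9.33 from 12 to 21 hours. It had 9.38, 9.10, 9.17 and 9.25 from 24 to 33 hours, and 9.08, 9.06, 9.16 and 9.15 from 36 to 45 hours. The last 4 arrays were all below the first 4. SPRY2 fell by 0.63 from the first to the last window (SE 0.12, limma adjusted p = 0.00059, 1.55-fold), and this call was made under every alternative and with each array left out. The earlier part of the decline, -0.40 at 12 to 21 hours (limma adjusted p = 0.017), was lost without the 3 hour array (-0.28, limma adjusted p = 0.067), without the 18 hour array (-0.35, limma adjusted p = 0.054) and with median scaling (-0.23, limma adjusted p = 0.12). It was also lost with only the 8 arrays compared (limma adjusted p = 0.086) and against 6 and 9 hours (-0.21, limma adjusted p = 0.20).

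SPRY4 (ILMN_27154) was near background, detected on 6 of 16 arrays, at 3, 30, 33, 36, 39 and 45 hours. Its lowest, median and highest log2 intensities were 5.76, 6.06 and 6.50. Neither the curve test (limma adjusted p = 0.32) nor a window called it. Whether its signal was too low to show a change of the transcript was not tested.

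The RefSeq promoter table (GRCh38.p14) held 6 of the 10 genes, in 10 entries: DUSP6, SPRED1, SPRED2, SPRY1, SPRY2 and SPRY4. DUSP4, DUSP5, ETV4 and ETV5 are named only. The 250 bases before each start were searched on both strands for CCGGAA (an ETS site), TGANTCA (AP-1), TGACGTCA (CRE) and TGTTTAC (FOXO). Other forms of the ETS site, which share the core GGAA, were not searched for. CCGGAA was found in 2 of the 10 entries, 1 each of SPRY1 and SPRY2, and in 14.5% of 35116 promoters. TGANTCA, TGACGTCA and TGTTTAC were found in 0 of the 10 entries and in 6.57%, 1.65% and 2.98% of all promoters. The SPRY1 and SPRY2 entries with a match are shown because they hold the only matches among the 10 entries, and DUSP6 because its transcript stood highest at 3 hours. They run 5′ to 3′ on the gene's strand, in lower case with the match in capitals, which begins 67 bases before the start in SPRY1 and 142 in SPRY2. SPRY1 is at chr4:123398136-123398385 (plus strand), SPRY2 at chr13:80341127-80341376 (minus strand) and DUSP6 at chr12:89352502-89352751 (minus strand).
SPRY1: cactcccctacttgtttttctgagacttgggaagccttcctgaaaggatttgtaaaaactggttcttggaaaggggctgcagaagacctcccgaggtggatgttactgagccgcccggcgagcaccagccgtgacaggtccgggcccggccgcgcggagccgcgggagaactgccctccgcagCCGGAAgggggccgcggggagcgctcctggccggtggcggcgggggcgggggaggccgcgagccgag
SPRY2: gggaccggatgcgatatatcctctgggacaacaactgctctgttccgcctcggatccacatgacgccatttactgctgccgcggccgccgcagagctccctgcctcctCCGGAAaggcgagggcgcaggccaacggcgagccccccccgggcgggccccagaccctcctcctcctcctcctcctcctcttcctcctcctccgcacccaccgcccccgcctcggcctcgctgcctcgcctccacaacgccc
DUSP6: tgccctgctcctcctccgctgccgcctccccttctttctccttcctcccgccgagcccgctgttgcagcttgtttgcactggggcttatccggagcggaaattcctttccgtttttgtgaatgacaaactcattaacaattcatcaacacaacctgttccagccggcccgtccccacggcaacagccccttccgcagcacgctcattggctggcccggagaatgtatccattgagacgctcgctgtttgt
A match describes the letters alone. The table does not tell which start is used in these cells.

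Of the DUSP phosphatases, DUSP4 and DUSP5 act in the nucleus and DUSP6 in the cytoplasm. The 2 probes of DUSP4 disagreed. The bright one (ILMN_11097) had 12.24, 11.97, 12.51 and 12.29 from 0 to 9 hours and 12.68, 12.54, 12.71 and 12.73 from 36 to 45 hours. All of the last 4 arrays were above the first 4, a rise of 0.41 (SE 0.09, limma adjusted p = 0.0025, 1.33-fold), called under every alternative and with each array left out. Its middle windows had 12.43 to 12.58 and 12.23 to 12.52. The step of 0.25 at 12 to 21 hours (limma adjusted p = 0.049) was lost when any of 13 of the 16 arrays was left out (0.16 to 0.34 over all 16 refits, limma adjusted p up to 0.19). It was also lost with no background correction (limma adjusted p = 0.051), no filter (0.070), only the 8 arrays compared (0.12) and against 6 and 9 hours (0.45). The step of 0.27 at 36 to 45 against 24 to 33 hours (limma adjusted p = 0.027) was lost without the 27, 30, 36, 42 or 45 hour array (limma adjusted p up to 0.096) and shrank to 0.06 with median scaling.

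The dim DUSP4 probe (ILMN_17730) had 7.25, 7.0, 7.15 and 7.43 from 0 to 9 hours and 6.74, 6.51, 6.71 and 6.31 from 36 to 45 hours. The last 4 arrays were all below the first 4, the reverse of the bright probe. The difference was -0.64 (SE 0.19, limma adjusted p = 0.018), lost without the 45 hour array (-0.55, limma adjusted p = 0.063) and with 42 and 45 against 0 and 3 hours (-0.61, limma adjusted p = 0.10). It was not above background at 18 hours. Its lower level at 12 to 21 hours (-0.55, at least 1.44-fold, limma adjusted p = 0.040) was lost without the 0, 6, 9, 12, 18 or 30 hour array (-0.37 to -0.57, limma adjusted p up to 0.15). It was lost in 5 of 7 other settings too: median scaling (limma adjusted p = 0.065), cyclic loess (0.052), no filter (0.064), only the 8 arrays compared (0.11) and, chosen after the values were seen, against 6 and 9 hours (0.052). The r between the 2 probes was -0.42, so no single direction can be given for DUSP4.

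DUSP5 (ILMN_12928) had its highest array at 3 hours: 10.42 at 0, 11.21 at 3, 10.19 at 6 and 10.46 at 9 hours. From 12 to 21 hours it had 9.72, 10.15, 10.35 and 10.07, and it lay between 9.98 and 10.38 afterwards. The 12 to 21 hour window was 0.50 below the first (SE 0.17, limma adjusted p = 0.033), with the 18 hour array overlapping it. That call rested on the 3 hour array, without which the difference was -0.29 (limma adjusted p = 0.12). It was also lost without the 12, 15 or 21 hour array (-0.38, -0.52 and -0.50) and with median scaling (-0.32, limma adjusted p = 0.15), only the 8 arrays compared (limma adjusted p = 0.13) and 6 and 9 hours as the reference (-0.26, limma adjusted p = 0.31). The curve test did not call DUSP5 (limma adjusted p = 0.10), but did without the 0 hour array (limma adjusted p = 0.027).

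DUSP6 (ILMN_5440) was dim and uneven. It had 5.73 (not above background), 7.81, 6.39 and 6.90 from 0 to 9 hours, and 7.25, 6.75, 6.01 (not above background) and 6.77 from 12 to 21 hours. It had 6.42, 6.42, 6.97 and 7.16 from 24 to 33 hours, and 7.19, 7.39, 6.97 and 6.07 (not above background) from 36 to 45 hours. The 4 windows overlapped, and no test called it (curve, limma adjusted p = 0.93). Its window differences had an SE of 0.37, the widest of the 11 probes.

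Besides DUSP5 and DUSP6, SPRY2 also had its highest array at 3 hours, 3 of 11 probes beside 10.6% of all probes. DUSP4 (ILMN_11097) and ETV5 had their lowest array there (11.97 and 8.13, ETV5 also with 8.13 at 0 hours). At 3 hours DUSP5 was 1.72-fold and DUSP6 at least 3.20-fold (4.23-fold as measured) above 0 hours, 2 of 11 probes past 1.7-fold beside 2.87% of all probes. In the deposited intensities, with no background correction, these ratios were 1.59 and 1.82. By 6 hours DUSP5 was 2.02-fold, DUSP6 2.66-fold and SPRY2 1.52-fold below its 3 hour value. A single array carries the 3 hour value of each gene, and no test of it was run. The medium change at 0 hours cannot be told apart from the inhibitor.

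Of the SPRED genes, which hold down RAS signalling through neurofibromin, SPRED1 (ILMN_1375) had its lowest array at 0 hours. It had 10.60, 11.14, 11.11 and 11.33 from 0 to 9 hours and 11.20 to 11.48 on the 12 later arrays. The curve test called SPRED1 (limma adjusted p = 0.0011), and the last window was 0.33 above the first (SE 0.11, limma adjusted p = 0.036). Both rested on the 0 hour array, the only untreated one: without it the limma adjusted p was 0.075 for the curve and 0.087 for the window difference, which became 0.18. The window call was also lost without the 36, 39, 42 or 45 hour array (0.31 to 0.34, limma adjusted p between 0.051 and 0.078) and with only the 8 arrays compared (limma adjusted p = 0.13). The 12 to 21 hour window was 0.26 above the first (limma adjusted p = 0.099), which passed without the 9 hour array (0.35, limma adjusted p = 0.015) and with median scaling (0.45, limma adjusted p = 0.013). Against 6 and 9 hours, a comparison chosen after the values were seen, the last window differed by 0.15 (limma adjusted p = 0.32).

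SPRED2 (ILMN_12131) had 8.76, 9.31, 8.70 and 8.96 from 0 to 9 hours and 8.94, 9.22, 9.17 and 9.41 from 36 to 45 hours, and lay between 8.77 and 9.08 in between. The first and last windows overlapped. The curve test called it (limma adjusted p = 0.034), but not without the 21, 24, 27, 39 or 45 hour array (limma adjusted p up to 0.20), nor with no filter (0.055), a spline of 5 degrees of freedom (0.093) or a straight line (0.29). No window difference of SPRED2 was called; the largest, 0.32 at 36 to 45 against 24 to 33 hours, had a limma adjusted p of 0.070, and passed without the 3 hour array (0.32, limma adjusted p = 0.033) or the 36 hour array (0.40, limma adjusted p = 0.034) and with only the 8 arrays compared (limma adjusted p = 0.020). That of the last against the first window, 0.25, was called with median scaling (0.41, limma adjusted p = 0.018) and without the 3 hour array (0.38, limma adjusted p = 0.026).

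A fold of 1.7 from the 0 hour array at any later time, the size used in the study's methods and with no test, was reached by 7 of the 11 probes, beside 43.8% of all probes. These were ETV4, ETV5, SPRY1, SPRED1, DUSP5, DUSP6 and the dim DUSP4 probe. ETV4 was furthest at 27 hours (2.13-fold) and ETV5 at 30 hours (2.18-fold higher). SPRY1 was at least 2.19-fold higher at 18 hours, and SPRED1 1.83-fold higher at 18 hours. With no background correction the count was 4 of 11, beside 18.3% of all probes.

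**Figure D3:**
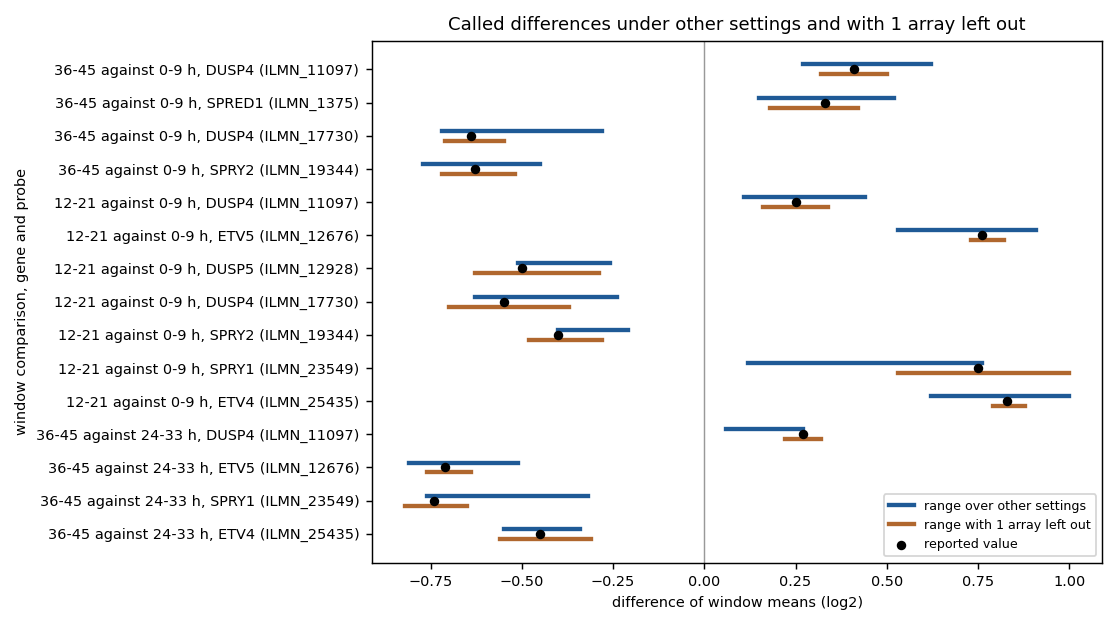
The 15 called window differences of the ERK feedback genes (rows), each as reported (black point), with its range over other processing settings (blue) and with 1 array left out (orange), on the log2 scale. No range crosses 0; those of ETV4 and ETV5 lie between 0.53 and 1.00 at 12 to 21 hours, and SPRY1 comes down to 0.12 against 6 and 9 hours.

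By likeness of course over the 16 arrays, the 5 probes closest to DUSP6 among 11946 candidates were TMF1 (r = 0.77), GABPA (0.75), ZNF77 (0.73), ZSWIM4 (0.70) and DYNC1I2 (0.69). Without the 0 and 3 hour arrays their order changed: ZNF77 had 0.68, TMF1 0.65, DYNC1I2 0.59, ZSWIM4 0.58 and GABPA 0.52. DUSP6 itself was not above background on 3 of the 16 arrays, and the curve test did not call it (limma adjusted p = 0.93). The highest r among so many candidates is high by selection, so the list is a description. No such list is given for SPRY4, which was detected on 6 arrays only.

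The same tests were read for 20 genes of the ERK cascade itself, from adaptors to the RSK kinases. Of these, 17 were tested and 10 were called by the curve, beside 54.6% of all probes. In the last against the first window 5 were higher and 3 lower (all probes, 16.2% and 15.0%), with a median of -0.05. RPS6KA2, which encodes a RSK kinase, rose by 0.86 (SE 0.11, limma adjusted p = 1.5e-05), from 9.20 to 10.06. NRAS declined from 9.26 to 8.54 (-0.72, SE 0.13, limma adjusted p = 0.00044), and HRAS from 10.64 to 9.93 (-0.71, SE 0.10, limma adjusted p = 5e-05). The RPS6KA2 and HRAS rows are combined rows.

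Of 11 other genes known to be induced by ERK, 10 were tested and all 10 were called by the curve, beside 54.6% of all probes. In the last window 6 were lower than in the first and 1 was higher (all probes, 15.0% and 16.2%), and the median was -0.45, against -0.02 for all probes. FOSL1, a subunit of AP-1, had 9.26 at 0, 10.82 at 3 and 10.96 at 6 hours and ended at 8.28 at 45 hours (-1.77 between windows, SE 0.29, limma adjusted p = 0.00019). PHLDA1 was highest at 0 hours (13.10) and lowest at 45 hours (10.83), a difference between windows of -1.72 (SE 0.18, limma adjusted p = 1.8e-06). LIF, a cytokine, had 8.66 and 8.68 at 0 and 3 hours and 6.95 at 9 hours, with a window difference of -0.77 (SE 0.28, limma adjusted p = 0.047). At 12 to 21 against 0 to 9 hours, where ETV4 and ETV5 rose, 0 of these 10 genes were called higher and 5 lower (all probes, 15.1% and 14.4%).

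Of 11 relatives of the feedback genes, 10 had a row and 6 were tested; SPRY3, ETV1, DUSP7 and IL17RD were detected on 0 arrays. The curve called 5 of the 6, beside 54.6% of all probes, and in the last against the first window 3 were higher and 0 lower (all probes, 16.2% and 15.0%). DUSP1, a nuclear phosphatase of several MAP kinases, had 13.69 at 0, 12.06 at 3 and 11.86 at 6 hours, and returned to a mean of 13.66 in the last window (1.23 above the first, SE 0.30, limma adjusted p = 0.0045). DUSP8 rose by 0.62 (at least 1.5-fold, SE 0.14, limma adjusted p = 0.0029) and DUSP16 by 0.54 (at least 1.45-fold, SE 0.16, limma adjusted p = 0.019), each with 1 of the first 4 arrays not above background; both act on the stress kinases JNK and p38. Of the 6, 4 were higher at 36 to 45 than at 24 to 33 hours and 0 were lower (all probes, 19.3% and 18.7%). Over the same step DUSP4 (ILMN_11097) was also called higher (0.27), while ETV4, ETV5 and SPRY1 fell.

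**Figure D4:**
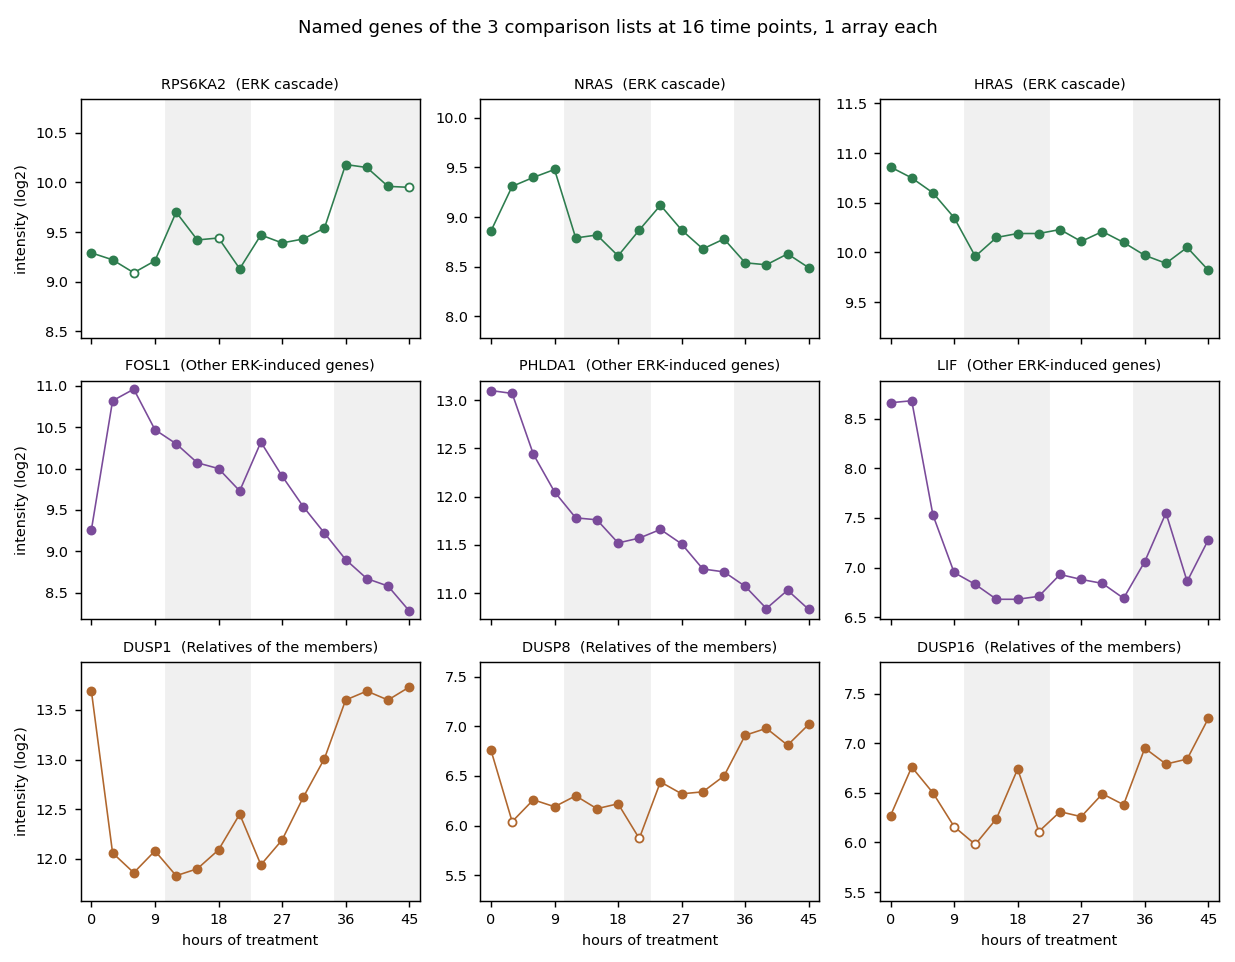
Log2 intensity (vertical axes) against hours of treatment (horizontal axis) of the 3 named genes of each comparison list, 1 array per point, open where the detection p was not under 0.05 (RPS6KA2 and HRAS are combined rows, whose detection p is on another scale). PHLDA1 declines from 13.10 to 10.83, and DUSP1 drops from 13.69 to 12.06 within 3 hours and is back at 13.73 at 45 hours.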

How the data were processed

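The authors deposited linear bead intensity values before any normalization, together with a detection p-value per row and array; their methods name quantile normalization. Here the background was corrected by normexp (offset 16), with the level of the negative controls estimated from single-probe rows, and arrays were quantile normalized and log2 transformed. The 11957 probes that 3 or more of the 16 arrays detected, with 0.05 as the limit, were tested. limma 3.58.1 in R 4.3.3 fitted a natural cubic spline of time (3 degrees of freedom) and a model of 4 windows, with Benjamini-Hochberg adjustment over all tested probes and 0.05 as the threshold; the code was tested on simulated data. Where an array did not detect a probe, ratios are bounds: the probe took the higher of its own value and the lowest detected single-probe value of that array. Rows whose detection p-values are not whole multiples of the step of single-probe rows are called combined, and their detection p is on another scale: LAMB3 (ILMN_1092) had a median of 11.21 with 0 arrays detected. Precision is limited by 1 array per time point and, for dim probes, by signal over background.

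The members and lists were chosen with earlier results of these data known. From each list the 3 genes with the largest last against first window difference among those called by the curve are named, by the brightest tested row; for DUSP10 and LAMB3 a brighter row was not tested. Alternatives were no background correction, offset 50, median scaling, cyclic loess, 2 other filters, other curves, other arrays in the fit, and leaving out each array. Promoter sequences are from RefSeq. Ratios include the offset, which makes those of dim probes too small.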

Additional observations from a re-analysis of the deposited data

Results flagged for a closer look

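One value stood apart from the others of its window. SPRY1 (ILMN_23549) had 5.95 at 39 hours, while the other 3 arrays from 36 to 45 hours had 6.06 to 6.07. Its gap to the nearest was 0.90 of the window's range (Dixon's ratio). The gap is small, all 4 values were not above background, and 48 windows of 12 rows were examined, of which chance flags about 1 in 20.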

How the results depend on the processing

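Of 22 called results of single probes, 8 were called under every alternative and with every array left out: the window differences of ETV4 and ETV5 at 12 to 21 and 36 to 45 hours, those of SPRY2 and DUSP4 (ILMN_11097) between the first and last windows, and the curve for the same SPRY2 and DUSP4 probes; the other 14 were lost at least once. No called result reversed. A straight line in place of the curve called 1953 of all probes in place of 6533, and 3 of the feedback probes in place of 7. Fitting only the 8 arrays compared called 2475 in place of 3730 probes for the last against the first window, 2178 in place of 3527 for 12 to 21 against 0 to 9 hours (2 of the feedback probes in place of 7), 12 in place of 3 for 24 to 33 against 12 to 21 hours, and 5807 in place of 4542 for 36 to 45 against 24 to 33 hours (5 feedback probes in place of 4); the cause was not tested. Median scaling called 11 in place of 3 for 24 to 33 against 12 to 21 hours, and 7 in place of 4 feedback probes for the last against the first window; the cause was not tested. Against 6 and 9 hours, chosen after the values were seen, 12 to 21 hours called 2 feedback probes in place of 7. With no background correction 2187 probes in place of 5234, and 4 feedback probes in place of 7, passed 1.7-fold, since uncorrected background shrinks ratios. With 1 array left out, the curve called 5965 to 6532 probes and 6 to 7 feedback probes; the last against the first window 3087 to 4320 and 3 to 5; 12 to 21 against 0 to 9 hours 2740 to 4288 and 3 to 7 (3 without the 3, 12 or 18 and 4 without the 0 or 21 hour array); 24 to 33 against 12 to 21 hours 1 to 6 and 0 (1 without the 12, 15, 18, 24, 27 or 30, 5 without the 9 or 21 and 6 without the 45 hour array); 36 to 45 against 24 to 33 hours 3828 to 5034 and 2 to 5 (2 without the 27 hour array). No paired analysis was possible because each time point is 1 array. Signal over background limits DUSP6, SPRY1, SPRY4 and the dim DUSP4 probe most.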
